A study of Homo sapiens with 4 samples.

Results

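The hnRNPs and the SR proteins are the main families of RNA-binding proteins that decide which exons of a pre-mRNA are kept. SR proteins, named for a tail rich in serine and arginine, mostly bind enhancer sequences in exons and recruit the splicing machinery, and the TRA2 proteins are their relatives. The hnRNPs (heterogeneous nuclear ribonucleoproteins) coat nascent transcripts and often bind silencer sequences that keep an exon out; many also act in export, stability and translation of mRNA. In neuronal cells both families take part in the inclusion of brain-specific exons.

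Members were the genes whose symbol in the count table was HNRNP followed by letters and at most 1 closing digit, SRSF followed by a number, TRA2A or TRA2B. This gave 52 of the 24014 genes. They were 20 hnRNP genes, 11 SR genes, 2 TRA2 genes and 19 hnRNP pseudogenes, whose symbols also match because the P of a pseudogene is read as a letter. HNRNPA1P7, HNRNPA3P6 and others with a digit before the P did not match.

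SK-N-SH is a human neuroblastoma line. RNA-seq was done on 2 control libraries (control 1 and 2), titled WT, whose treatment label gives an empty lentivirus vector, and on 2 libraries of cells given a lentivirus that carries AP1AR-DT, a long non-coding RNA (these are AP1AR-DT_OE 1 and 2). By the treatment labels all 4 libraries thus share lentiviral treatment. Per the study's methods the AP1AR-DT cDNA was cloned into a vector with puromycin resistance; whether the empty vector of these controls had the same backbone is not given in the sources used here. For AP1AR-DT_OE 2 the name of the RNA ends differently in the title and in the other labels, which may thus name another RNA. The group was taken from the title, and this library had 1065 AP1AR-DT counts, against 3 and 18 in controls 1 and 2. The comparison asks how the cells' transcripts respond to more AP1AR-DT.

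The libraries held 21988065 to 26184599 counts over 19833 to 21280 genes above 0. AP1AR-DT had 3 and 18 counts in controls 1 and 2, and 680 and 1065 counts in AP1AR-DT_OE 1 and 2 (Log2FC 6.63, SE 0.64, DESeq2 adjusted p = 3.64e-21). Its adjusted p was 0.390 in the edgeR quasi-likelihood test. Rows were analysed for 7 of 8 adrenergic neuroblastoma markers, with a summed normalized read count of 24066 to 29790 per library, and for 8 of 8 mesenchymal markers, with 114168 to 148215. VIM alone had 67917 to 93086, so the sums do not rank the 2 states. PRRX1 had 2770 and 11358 in controls 1 and 2, and 1241 and 2246 in AP1AR-DT_OE 1 and 2 (Log2FC -2.02, SE 0.61, DESeq2 adjusted p = 0.431). In the other mesenchymal markers the groups overlapped. Of the leukocyte markers only ITGAM had a row here, with 0 to 4.39, and no keratinocyte marker had one. Of the hepatocyte markers APOA1 and SERPINA1 had rows, with a sum of 83.4 to 165. A normalized read count is the count over the library's DESeq2 size factor.

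Several members are near copies of each other, and the shortest way to see this is to set the sequences side by side. Most of the pseudogenes are processed, that is, intron-free copies of the spliced mRNA. Each pair below shows 150 bases of the coding sequence of the gene, centred on an exon junction, above the matching stretch of the pseudogene with the most counts in that family. The length is that of 1 read. Lower case marks identical bases and capitals mark mismatches; sequences are from the GRCh37 genome with GENCODE v44 annotation mapped to it. Of the junction windows that aligned in full, the one with the fewest mismatches is shown, so other stretches can differ more. How counts were split between gene and copy was not tested.

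The HNRNPC window joins chr14:21702112-21702186 to chr14:21699157-21699231 (minus strand), and the HNRNPCP2 window is chr2:190788228-190788377 (plus strand). They have 0 mismatches, so a read from this stretch could come from either.
HNRNPC: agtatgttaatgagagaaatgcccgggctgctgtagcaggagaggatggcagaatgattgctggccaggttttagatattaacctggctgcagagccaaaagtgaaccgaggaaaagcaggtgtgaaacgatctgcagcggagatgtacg
HNRNPCP2: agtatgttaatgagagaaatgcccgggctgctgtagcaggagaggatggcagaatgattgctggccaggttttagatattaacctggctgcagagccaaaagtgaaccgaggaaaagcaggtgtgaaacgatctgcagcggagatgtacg

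The HNRNPL window joins chr19:39336493-39336567 to chr19:39336301-39336375 (minus strand), and the HNRNPLP2 window is chr15:34782270-34782419 (minus strand). They differ by 1 base, G124A, counted from 1 at the 5′ end of the window with the base of the gene first.
HNRNPL: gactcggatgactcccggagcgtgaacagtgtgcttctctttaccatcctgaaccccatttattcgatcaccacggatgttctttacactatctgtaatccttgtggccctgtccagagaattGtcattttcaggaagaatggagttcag
HNRNPLP2: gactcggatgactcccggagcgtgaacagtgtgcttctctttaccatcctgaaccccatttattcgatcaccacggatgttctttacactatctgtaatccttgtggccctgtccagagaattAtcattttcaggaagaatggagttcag

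The HNRNPK window joins chr9:86587759-86587833 to chr9:86587030-86587104 (minus strand), and the HNRNPKP4 window is chr3:96068969-96069118 (plus strand). They differ at C71A and C120T.
HNRNPK: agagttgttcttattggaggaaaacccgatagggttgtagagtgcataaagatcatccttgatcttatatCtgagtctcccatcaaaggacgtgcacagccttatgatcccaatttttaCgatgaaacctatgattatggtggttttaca
HNRNPKP4: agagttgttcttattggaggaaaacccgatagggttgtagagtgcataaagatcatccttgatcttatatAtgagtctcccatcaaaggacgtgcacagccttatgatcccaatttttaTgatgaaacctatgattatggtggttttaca

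Over the whole aligned coding sequence HNRNPCP2 was 98.9% identical to HNRNPC, HNRNPLP2 was 97.5% identical to HNRNPL and HNRNPKP4 was 96.6% identical to HNRNPK. Of the windows of 150 bases along the coding sequence, 23 of 730 in HNRNPC and 52 of 1618 in HNRNPL were identical in the copy, against 0 of 1243 in HNRNPK. The HNRNPCP2 and HNRNPKP4 rows are annotated as processed pseudogenes, and HNRNPLP2, although it has 1 exon, as unprocessed.

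Of the 52 members, 43 averaged at least 50 normalized read counts over the 4 libraries (called the 50-count level from here on): all 20 hnRNP genes, 11 of 13 SR and TRA2 genes and 12 of 19 pseudogenes. In total, 5 members lay at or under 12 counts in every library, the floor taken here as 3 read pairs of about 4 counts each, and 7 were at 0 in at least 1 library. The members together took 0.478% of the counts in control 1, 0.675% in control 2, 0.530% in AP1AR-DT_OE 1 and 0.599% in AP1AR-DT_OE 2. Both AP1AR-DT_OE shares lay between the control shares.

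**Figure D1:**
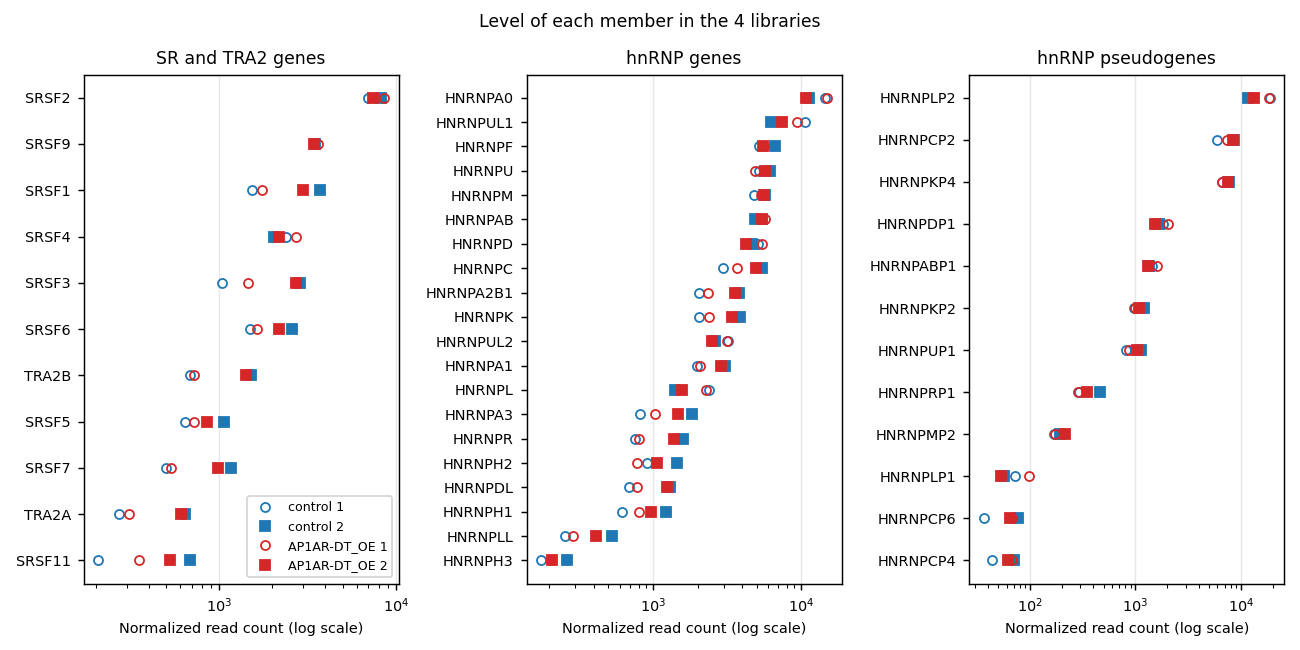
Normalized read count of the 43 members at the 50-count level, on log axes, in each of the 4 libraries (open circles, libraries numbered 1; filled squares, libraries numbered 2; blue, control; red, AP1AR-DT_OE). In most rows the symbols part by library number rather than by colour, as in SRSF1, where controls 1 and 2 had 1541 and 3740 and AP1AR-DT_OE 1 and 2 had 1761 and 2978.

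No member passed the test. At a DESeq2 adjusted p under 0.05, 33 of 24014 genes were called, which is 0.137%, and 0 of the 52 members. At an unadjusted p under 0.05 there were 196 genes, or 0.816%, and 1 member, the pseudogene HNRNPDLP2. The edgeR quasi-likelihood test called 0 genes, with 112 genes and 0 members at an unadjusted p under 0.05. Among the 31 protein-coding members at the 50-count level, Log2FC ran from -0.36 to 0.15 with a median of -0.02, beside -0.02 over all genes at that level. Their SE was 0.42 to 0.61 and their 95% intervals, which are not adjusted for the number of genes, reached from -1.30 to 1.19. Changes of up to about this size could not be told from 0 with 2 libraries a group. A call at an adjusted p under 0.05 would take a larger change still. In bulk RNA, fewer cells of a type and less RNA per cell cannot be told apart. Nothing in the labels says that the libraries came from separate cultures, so p-values measure the spread between these samples, which may be technical.

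**Figure D2:**
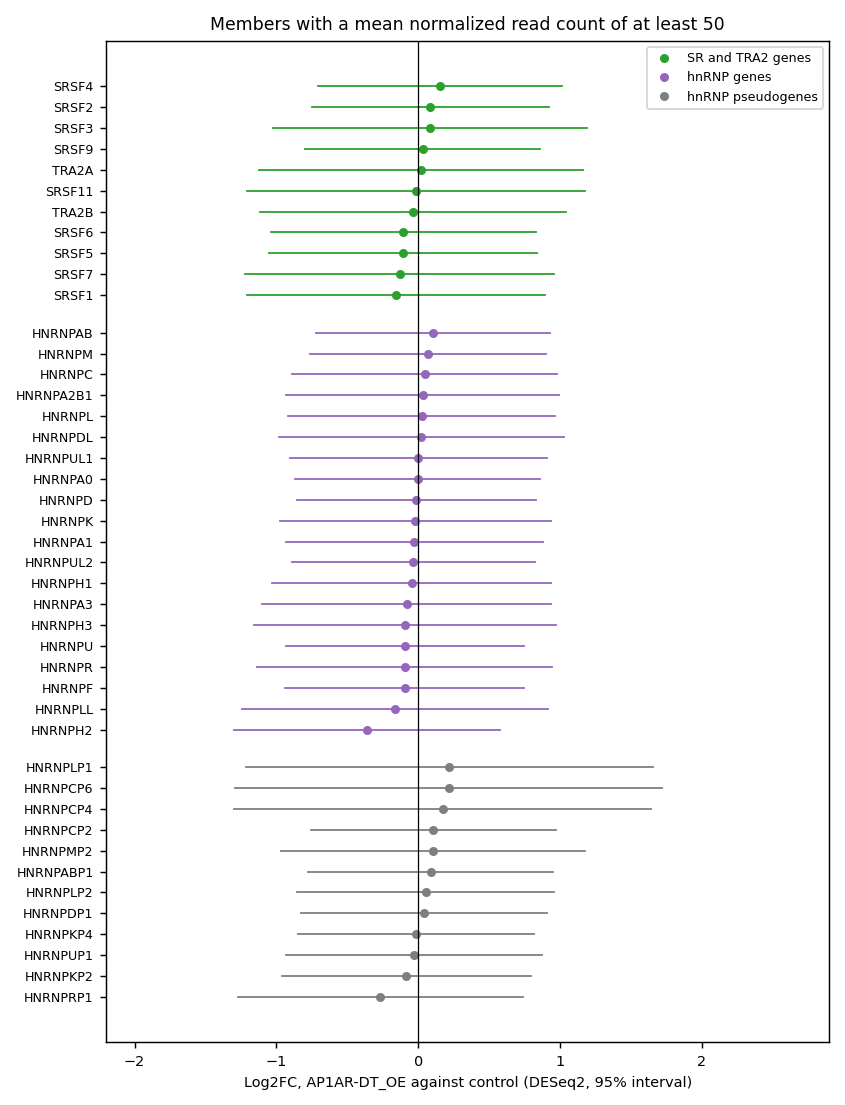
Log2FC of AP1AR-DT_OE against control (points) with its 95% interval (lines) from DESeq2 for the 43 members at the 50-count level, by family. Every interval crosses 0; the lowest bound is -1.30 and the highest 1.72.

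Of the SR proteins, SRSF2 (chr17:76734115-76737333, GRCh38 as the table gives it), a speckle protein that also acts in release of paused RNA polymerase, had the highest level per length. It had 6107 and 10655 counts in controls 1 and 2, and 7861 and 7533 in AP1AR-DT_OE 1 and 2. After normalization it had 7587 ± 894 in control against 8050 ± 810 in AP1AR-DT_OE (SD, n = 2). Log2FC was 0.09 and SE 0.43. Per kb of its longest transcript this was 2710.1, more than 97.2% of the genes of the table. The groups overlapped, with the lowest value in control 1 and the highest in AP1AR-DT_OE 1. Of the 52 members, 13, of which 10 coding, overlap a gene on the opposite strand, and 5 share exon sequence with another gene on their own strand. SRSF2 lies opposite MFSD11 on the other strand; the sources do not say whether counting used the strand, so reads of the overlap cannot be told apart.

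SRSF9 (chr12:120461672-120469748), a short relative of SRSF1, came next at 2053 per kb. Its control libraries were the closest together of all 43, with a log2 ratio of 0.02: 3020, 4511, 3304 and 3476 counts in controls 1 and 2 and AP1AR-DT_OE 1 and 2 became normalized read counts of 3460 ± 28.4 in control against 3537 ± 123 in AP1AR-DT_OE (SD, n = 2). The Log2FC was 0.03 with SE 0.42. It shares exon sequence on the same strand with DYNLL1-AS1 and overlaps DYNLL1 and GATC on the other strand. As for SRSF2, reads of these overlaps cannot be told apart.

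SRSF3 and SRSF1 followed, at 478 and 469 normalized read counts per kb, close to each other beside their spread over libraries. SRSF3 (chr6:36594353-36605600), the smallest SR protein and an adaptor for mRNA export, had 915 and 3738 counts in controls 1 and 2 and 1321 and 2736 in AP1AR-DT_OE 1 and 2. The control values enclosed both others. Its Log2FC was 0.08 with SE 0.56, and 1.01 without control 2, in a fit with 1 control library. SRSF1 (chr17:58000919-58007346), the founding SR protein, had 1353 counts in control 1 and 4848 in control 2, beside 1605 and 3000 in AP1AR-DT_OE 1 and 2. Its Log2FC was -0.16 with SE 0.54. Again both AP1AR-DT_OE values lay between the controls.

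SRSF4 (chr1:29147743-29181900) had 2101 and 2635 counts in controls 1 and 2, and 2498 and 2202 in AP1AR-DT_OE 1 and 2. Normalized read counts were 2213 ± 255 in control against 2463 ± 392 (SD, n = 2). Its Log2FC of 0.15, with SE 0.44, was the highest of the SR and TRA2 genes at the 50-count level by signed value, and SRSF1 had the lowest at -0.16. The groups overlapped here too. Its relatives SRSF5 and SRSF6 had Log2FC of -0.11 and -0.10, with SE of 0.48 each, and SRSF7, an export adaptor like SRSF3, had -0.13 with SE 0.56.

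TRA2A and TRA2B bind enhancers rich in GAA and favour exon inclusion. TRA2B (chr3:185914558-185938103) had normalized read counts of 1102 ± 596 in control against 1074 ± 496 in AP1AR-DT_OE, and TRA2A (chr7:23504780-23532041) had 454 ± 259 against 460 ± 216 (SD, n = 2 for each). Their Log2FC was -0.04 with SE 0.55 and 0.02 with SE 0.58. In each gene the SD was about as large in both groups, since library 2 had more than library 1 in both.

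SRSF11, which acts with SRRM4 on neural microexons, had the lowest level of the SR genes over 50, at 110 per kb. Its counts were 181 and 886 in controls 1 and 2, and 322 and 531 in AP1AR-DT_OE 1 and 2. Its spread between controls was the widest of all 43 members, a log2 ratio of 1.73. Log2FC was -0.02 with SE 0.61, and 1.11 without control 2, in a fit with 1 control library.

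SRSF12 had 0, 41, 9 and 18 counts in controls 1 and 2 and AP1AR-DT_OE 1 and 2. SRSF10 (chr1:23964347-23980927), a splicing repressor when dephosphorylated and the relative of SRSF12, was listed at 0, 4, 0 and 0 counts. It was at or under the floor of 12 counts in all 4 libraries, so no fold is given. It had the lowest mean of the SR and TRA2 genes.

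Of the hnRNP genes, HNRNPAB (chr5:178204533-178211163), an A/B-type protein, had the highest level per length at 2993 per kb. It had 4741 and 6357 counts in controls 1 and 2, and 5166 and 5439 in AP1AR-DT_OE 1 and 2. Normalized read counts were 5152 ± 351 in control against 5532 ± 190 (SD, n = 2), a Log2FC of 0.10 with SE 0.42. AP1AR-DT_OE 2, at 5398, lay just under control 1, at 5400; with TMM factors the groups did not overlap.

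HNRNPUL1, HNRNPM and HNRNPF followed at 2136, 2089 and 2087 per kb, and their values over the libraries overlapped. HNRNPUL1, a relative of HNRNPU with a part in DNA repair, ran against most of the family, with 10528 and 6228 normalized read counts in controls 1 and 2 and 9376 and 7397 in AP1AR-DT_OE 1 and 2. HNRNPM, which binds GU-rich sequence, had Log2FC 0.07 with SE 0.42, and HNRNPF, which binds runs of G, had -0.10 with SE 0.43.

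The A and B proteins bind silencers such as UAGG. HNRNPA0, a single-exon gene, had the highest normalized read count of any coding member, 12934 ± 2297 in control against 12894 ± 2919 in AP1AR-DT_OE (SD, n = 2). HNRNPA1, HNRNPA2B1 and HNRNPA3 had Log2FC of -0.03, 0.03 and -0.08, with SE of 0.46, 0.49 and 0.52. HNRNPD and HNRNPDL, which bind AU-rich elements, had -0.01 with SE 0.43 and 0.02 with SE 0.51. All 6 genes overlapped between groups.

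HNRNPH2 (chrX:101408222-101414133), an X-linked protein that binds runs of G, had the lowest Log2FC of the coding members at the 50-count level. Its counts were 799 and 1889 in controls 1 and 2, and 715 and 1066 in AP1AR-DT_OE 1 and 2. Normalized read counts were 1184 ± 387 in control against 921 ± 194 (SD, n = 2). Log2FC was -0.36 with SE 0.48 (DESeq2 adjusted p = 1.00). AP1AR-DT_OE 2, at 1058, lay above control 1, at 910. Without control 2 the Log2FC was 0.03. The gene shares exon sequence with the read-through RPL36A-HNRNPH2. Its relatives HNRNPH1 and HNRNPH3 had -0.05 with SE 0.50 and -0.09 with SE 0.54, and HNRNPH3 had the lowest level per length of the hnRNP genes, 63.4 per kb.

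HNRNPC, a tetramer that binds U tracts and keeps Alu sequence out of mRNA, had Log2FC 0.05 with SE 0.48, and HNRNPK, which binds C-rich sequence, had -0.02 with SE 0.49. HNRNPL, which binds CA repeats, had 0.02 with SE 0.48, and its relative HNRNPLL -0.16 with SE 0.55. HNRNPR, with a part in transport of mRNA in axons, had -0.09 with SE 0.53. HNRNPU, a nuclear matrix protein, had -0.09 with SE 0.43, and HNRNPUL2 -0.04 with SE 0.44. None of these differed by more than the spread between libraries.

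The rows with the highest level per length in the hnRNP family were not genes but 3 pseudogenes. HNRNPLP2 (chr15:34489002-34490571), at 9940.3 per kb, had 16627 and 15169 counts in controls 1 and 2, and 16870 and 13382 in AP1AR-DT_OE 1 and 2, against 2110, 1816, 2083 and 1593 for HNRNPL itself. The mean normalized read count of HNRNPLP2 was 8.14 times that of HNRNPL. Its Log2FC was 0.05 with SE 0.46.

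HNRNPCP2 (chr2:189923336-189924216), at 8597 per kb, had 5240 counts in control 1, 11178 in control 2, 6707 in AP1AR-DT_OE 1 and 8412 in AP1AR-DT_OE 2. In the same order HNRNPC had 2610, 7003, 3360 and 4996. The mean of the copy was 1.78 times that of the gene in normalized read counts, with Log2FC 0.11 and SE 0.44. HNRNPKP4 (chr3:96349554-96350939), at 5153 per kb, had 5870, 9940, 6043 and 7644 counts in that order, 2.45 times the mean of HNRNPK in normalized read counts. Its Log2FC was -0.01 with SE 0.42. In all 3 pairs the copy exceeded the gene in every library. Where the reads counted on these rows came from was not tested, since the table holds no alignments.

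Of the 12 pseudogenes at the 50-count level, 3 had more counts than their gene and 6 had more per kb. HNRNPUP1, a fragment of 333 bases, had 2890.4 per kb against 419 for HNRNPU, and HNRNPDP1 had 2351 against 1054 for HNRNPD. The lengths are unlike, since a gene was divided by its longest transcript, 13084 bases in HNRNPU. In mean normalized read counts the copies were lower, with 963 against 5483 for HNRNPU and 1773 against 4845 for HNRNPD. Copies outside the symbol rule also took counts. HNRNPA1 has 19 of them with a row, and HNRNPA1 itself took 13.4%, 16.4%, 13.5% and 16.5% of the counts of the gene and its copies in controls 1 and 2 and AP1AR-DT_OE 1 and 2. HNRNPL took 10.6% to 11.2%. Of 16 members with at least 1 named copy, 5 took under 50% of their sum: HNRNPL, HNRNPA1, HNRNPK, HNRNPA3 and HNRNPC.

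**Figure D3:**
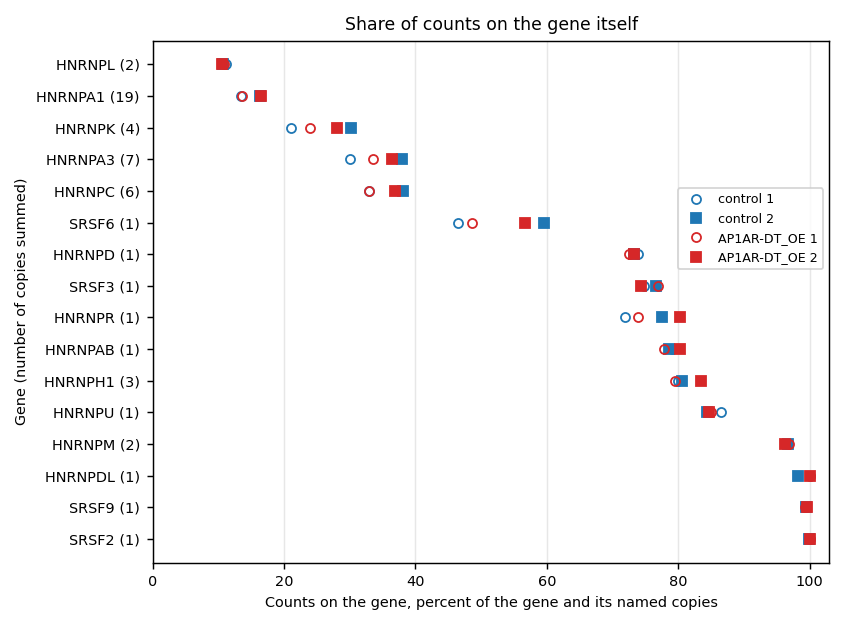
Counts on each gene as a percentage of the counts on the gene and its named copies, in each library (symbols as in the plot of levels; number of copies in brackets). HNRNPL, HNRNPA1, HNRNPK, HNRNPA3 and HNRNPC lie under 50% in all 4 libraries, whereas SRSF2, SRSF9, HNRNPDL and HNRNPM lie above 95%.

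With the counts of a gene and its copies added up before the fit, which was tried after the data were seen, Log2FC of the 16 sums ran from -0.13 for HNRNPR to 0.10 for SRSF3 and HNRNPAB, and none was called (DESeq2 adjusted p = 1.00 for each). The share of the gene differed more between libraries of a group than between groups in HNRNPK, with 21.0% and 30.2% in controls 1 and 2 and 24.0% and 28.1% in AP1AR-DT_OE 1 and 2. SRSF6, beside its copy SRSF6P2, went from 46.5% in control 1 to 59.5% in control 2, with 48.6% and 56.7% in AP1AR-DT_OE 1 and 2.

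HNRNPDLP2 (chr2:158419955-158425303) was the 1 member with an unadjusted p under 0.05, a DESeq2 p of 0.043 that became an adjusted p of 1.00. Its counts were 0, 30, 0 and 0 in controls 1 and 2 and AP1AR-DT_OE 1 and 2. The p thus rests on control 2 alone, and no fold is given. HNRNPCP1 (chr14:58521223-58521988) had 3, 22, 0 and 5 counts. It shares exon sequence on the same strand with KIAA0586. HNRNPKP3 had the lowest mean of the family, with 0, 3, 0 and 0 counts. In each of these rows control 2 had the most counts.

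The groups did not part in any of the 43 members at the 50-count level. Over all 13298 genes at that level, the controls and the AP1AR-DT_OE libraries parted without overlap in 1257, which is 9.45%. Below that level, HNRNPKP1 had 11 and 23 counts in controls 1 and 2, and 9 and 10 in AP1AR-DT_OE 1 and 2. In 28 of the 43 members (65.1%) both AP1AR-DT_OE values lay between the control values, as they did in 50.2% of all genes at that level. This was so in 8 of 11 SR and TRA2 genes, 14 of 20 hnRNP genes and 6 of 12 pseudogenes.

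In these genes the libraries parted by number more than by group. Over the 31 protein-coding members at the 50-count level, the log2 ratio of control 2 to control 1 had a median of 0.74, with 24 above 0 and 7 below, and that of AP1AR-DT_OE 2 to AP1AR-DT_OE 1 had a median of 0.42, with 21 above 0 and 10 below. Over all genes at that level the medians were -0.05 and -0.03. The SR and TRA2 genes had medians of 1.16 and 0.58 and the hnRNP genes 0.60 and 0.24. The genes that ran the other way in both groups included HNRNPL, HNRNPUL1, HNRNPA0 and SRSF4.

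These ratios moved with base composition. The GC content of the longest transcript had a median of 41.1% in the coding members and 49.0% in all genes at the 50-count level. Across those 31 members Spearman's rho between GC content and the control ratio was -0.55, and across 13206 genes it was -0.77; the genes share the same 4 libraries, so this is a description. The 1395 genes with a median GC content of 41.3% had median log2 ratios of 0.97 in the controls and 0.64 in AP1AR-DT_OE, above the medians of the members. After the smoothed trend with GC content was taken out, the medians of the coding members were -0.15 and -0.11. Whether GC content or another property of the libraries set these ratios was not tested.

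**Figure D4:**
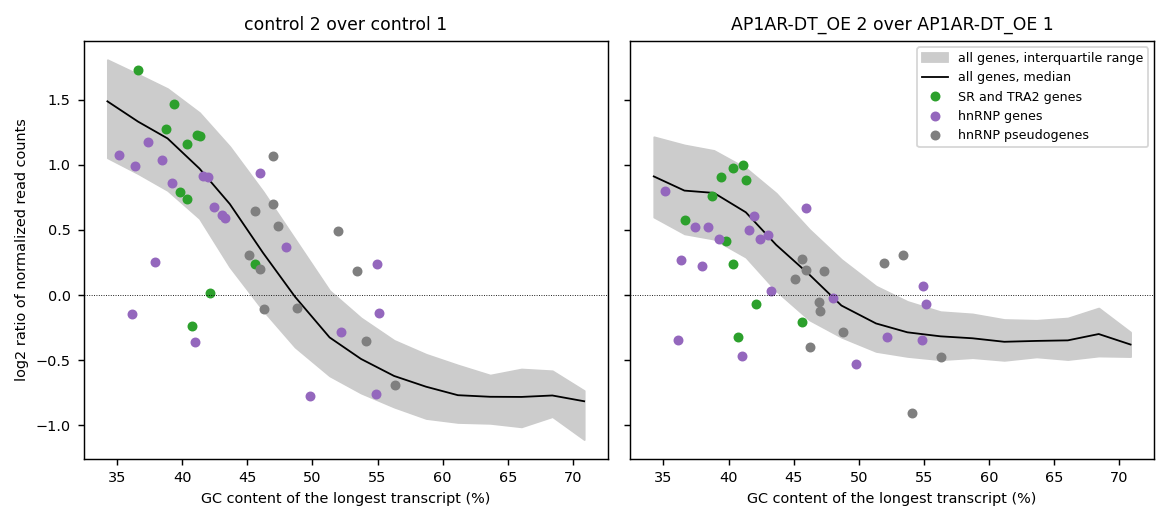
Log2 ratio of normalized read counts of library 2 over library 1 in control (left) and AP1AR-DT_OE (right) against the GC content of the longest transcript in percent. Points are the 43 members at the 50-count level, the line is the median of all genes in bins of GC content and the band their interquartile range; most members follow the line, from about 1 at low GC content to below 0 at high GC content.

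The ratio of AP1AR-DT_OE to control was taken in each library number, with 1 library a group and no test. For number 1 it was above 0 in 35 of 43 members, and for number 2 it was below 0 in 37. The medians over the 31 coding members were 0.16 and -0.12 on the log2 scale, beside -0.02 and 0.02 over all genes. The 1395 genes with a median GC content of 41.3% had medians of 0.10 and -0.21. The sign was opposite in 35 of 43 members (81.4%), against 61.9% of all genes at the 50-count level. The share with opposite signs was not taken for genes of like GC content, so it is not read as particular to the members. Of the SR and TRA2 genes 10 of 11 were above 0 for number 1 and below 0 for number 2. The exception was SRSF4, at 0.20 and 0.10. HNRNPH2 was below 0 for both, at -0.21 and -0.46, and HNRNPAB above 0 for both, at 0.07 and 0.14.

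**Figure D5:**
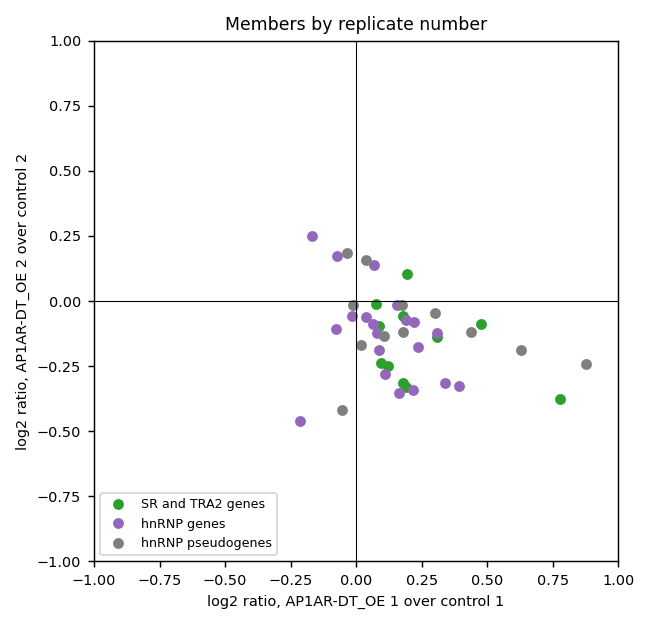
Log2 ratio of AP1AR-DT_OE 1 over control 1 (horizontal) against that of AP1AR-DT_OE 2 over control 2 (vertical) for the 43 members at the 50-count level. Most points, 32 of 43, lie at the lower right, above 0 for number 1 and below 0 for number 2.

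The proteins that work with these families gave no calls either. Of 89 genes in 6 lists, 85 had a row, and 0 were called or had an unadjusted p under 0.05 in DESeq2. The 85 were 9 hnRNPs and related proteins outside the symbol rule, 8 kinases that phosphorylate SR proteins and 10 SR-related proteins. The rest were 27 tissue-restricted or other splicing regulators, 23 proteins of the U1 and U2 particles and 8 factors of nonsense-mediated decay. Nonsense-mediated decay is the route that degrades SR transcripts with a poison exon. The median Log2FC of the 70 at the 50-count level was -0.00288, with -0.69 for SYNCRIP and 0.80 for SNRPG at the ends. Both AP1AR-DT_OE libraries lay above both controls in 4 of these 70 genes and below them in 1, where 9.45% of all genes at that level had groups without overlap. The 5 were PCBP2, PNN, CELF1 and SNRPC, which were higher, and SMG1, which was lower, named after their values were seen.

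PTBP1, the polypyrimidine tract protein that keeps neuronal exons out in non-neuronal cells, had 13613 and 12965 counts in controls 1 and 2 and 14206 and 11298 in AP1AR-DT_OE 1 and 2, with Log2FC 0.07 and SE 0.46. Its neuronal relative PTBP2 had 19, 66, 26 and 89 counts, with Log2FC 0.68 and SE 0.91. The microexon regulator SRRM4 had 43, 40, 50 and 25 counts, with Log2FC -0.00 and SE 0.90. Of the CDC2-like kinases, CLK1 had 43, 87, 14 and 66 counts (Log2FC -0.52, SE 0.90) and CLK4 had 15, 29, 15 and 20 (Log2FC -0.12, SE 1.15). The groups overlapped in all 5.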

How the data were processed

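RNA-seq gave 1 table of read counts for 4 libraries of SK-N-SH cells, 2 control and 2 AP1AR-DT_OE, assigned to groups by their titles. The deposited counts are whole numbers without normalization. Per the study's methods the authors aligned pairs of 150-base reads to hg19 with HISAT2 and took read counts from StringTie output with its Python script; the submitters' processing notes name TopHat2 2.0.4, SAMtools, HTSeq, Cuffdiff and edgeR 2.6.12 instead. The annotation and the use of strand are not given in the sources used here. Gene coordinates of the table are GRCh38: 52 of 52 members overlapped their RefSeq position on that build. Columns with the authors' fold changes and p-values were not used. Low counts piled up at multiples of 4 (3287 entries of 4 against 2136 of 3 and 1509 of 5), so 1 read pair was taken as about 4 counts and the floor as 3 pairs, or 12 counts, in each library. This covers counting error only, since PCR copies are not independent molecules.

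All 24014 genes were fitted in 1 model with DESeq2 1.42.0 (R 4.3.3; Wald test, two-sided, no covariate, Benjamini-Hochberg adjustment), and members were read from that fit. Intervals are the Log2FC ± 1.96 SE. Length and GC content are those of the longest transcript of GENCODE v44 (the GRCh37 mapping), found through the gene ID for 23954 genes and all 52 members. Pseudogenes were aligned to the coding sequence of their gene. As alternatives, edgeR 4.0.16 (quasi-likelihood), TMM factors, the likelihood-ratio test, a filter of 10 counts in 2 libraries, DESeq2 with independent filtering off, the library number as a block, removal of a lowess trend (span 0.3) with GC content with and without the block, counts divided by 4, and leaving out 1 library at a time were tried, where the lone library of a group is assumed to vary like the others. Summing a gene with its copies, or with genes sharing its exons, was added after seeing the data. The procedure was also run on simulated counts, drawn independently for each gene and library. These lacked the trend with GC content, so the run is not used as support for the results here.

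The members, gene lists and tests were chosen with earlier results of these data known. Values per library are given for the 4 members of each family (hnRNP; SR with TRA2) with the most normalized counts per kb, the 3 with the smallest unadjusted p, the lowest in mean, and any called; of the other splicing lists, for called genes and PTBP1, PTBP2, CLK1, CLK4 and SRRM4. Genes beyond this rule were chosen after their values were seen.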

Additional observations from a re-analysis of the deposited data

How the results depend on the processing

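No hnRNP, SR or TRA2 member and no other listed splicing gene was called under any alternative. The count over all genes did depend on the setting: beside 33, it was 55 with the GC correction, 59 with the GC correction and the block, 15 with counts divided by 4 and 0 with edgeR, where AP1AR-DT had a log2 fold change of 6.60 and did not pass. Leaving out a library gave 45 to 90, namely 90 without control 1, 75 without control 2, 45 without AP1AR-DT_OE 1 and 50 without AP1AR-DT_OE 2, and 6.02 to 8.05 for AP1AR-DT. The member at an unadjusted p under 0.05, HNRNPDLP2, was kept with TMM factors and with no independent filtering. The count was 0 with the expression filter, the likelihood-ratio test, the block, both GC corrections, counts divided by 4 and edgeR. These are the settings that keep all 4 libraries and sum no rows. Without control 2, in a fit with 1 control library, the log2 fold change was 1.01 for SRSF3 and 1.11 for SRSF11. Members without overlap between groups rose from 0 to 1 with TMM factors (HNRNPAB, higher in AP1AR-DT_OE) and to 4 with the GC correction (HNRNPA2B1 and HNRNPK higher, HNRNPH2 and HNRNPRP1 lower). In the main setting 9.45% of all genes at the 50-count level had no overlap. That share was not taken with TMM factors or the GC correction, so these counts are not read as a result about the members. The median log2 fold change ran from -0.26 without control 1 to 0.11 without control 2 for hnRNP members, and from -0.47 without control 1 to 0.62 without control 2 for SR and TRA2 members; the cause was not tested.

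The library number was also used as a replicate block. Same-numbered libraries deviated together, with a correlation of 0.490 over 13298 genes and 0.877 over the 43 members, but the labels do not say that a number marks a shared batch and there are 2 pairs. With the block 37 genes and 0 members were called, so it changed no call of a member.

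Of 498 log2 fold changes of members under alternatives other than a left-out library, 37 had the opposite sign. With the GC correction it was -0.012 for HNRNPM, -0.0058 for HNRNPUL1, 0.0027 for HNRNPA0, 0.0064 for SRSF6, 0.0069 for SRSF1, 0.010 for SRSF5, 0.027 for HNRNPR, 0.032 for HNRNPA1, 0.073 for TRA2B, 0.090 for HNRNPK, 0.10 for HNRNPA3, 0.13 for HNRNPH1, 0.26 for SRSF11 and 0.38 for SRSF12. With the GC correction and the block together it was -0.0017 for HNRNPUL1, 0.0020 for SRSF5, 0.0073 for SRSF6, 0.0075 for SRSF1, 0.034 for HNRNPA1, 0.038 for HNRNPR, 0.054 for HNRNPA0, 0.061 for HNRNPD, 0.068 for TRA2B, 0.089 for HNRNPA3, 0.090 for HNRNPK, 0.11 for HNRNPH1, 0.27 for SRSF11 and 1.85 for SRSF12. With the block it was 0.0081 for HNRNPA3, 0.027 for HNRNPK, 0.029 for HNRNPH1, 0.19 for SRSF11 and 1.60 for SRSF12. With TMM factors it was -0.0098 for TRA2A, -0.0022 for HNRNPDL and -0.0022 for HNRNPUL1. With copies summed it was 0.0016 for HNRNPD. Leaving out a library turned the sign in 72 of 187 values. The members concerned ranged over -0.26 to 0.20 for HNRNPA0, -0.30 to 0.32 for HNRNPA1, -0.35 to 0.56 for HNRNPA2B1, -0.56 to 0.63 for HNRNPA3, -0.069 to 0.21 for HNRNPABP1, -0.32 to 0.55 for HNRNPC, -0.14 to 0.41 for HNRNPCP2, -0.13 to 0.58 for HNRNPCP4, -0.22 to 0.86 for HNRNPCP6, -0.20 to 0.14 for HNRNPD, -0.37 to 0.58 for HNRNPDL, -0.18 to 0.22 for HNRNPDP1, -0.27 to 0.11 for HNRNPF, -0.46 to 0.54 for HNRNPH1, -0.66 to 0.029 for HNRNPH2, -0.36 to 0.24 for HNRNPH3, -0.41 to 0.52 for HNRNPK, -0.23 to 0.091 for HNRNPKP2, -0.13 to 0.10 for HNRNPKP4, -0.30 to 0.46 for HNRNPL, -0.59 to 0.46 for HNRNPLL, -0.31 to 0.59 for HNRNPLP1, -0.24 to 0.44 for HNRNPLP2, -0.051 to 0.20 for HNRNPM, -0.069 to 0.24 for HNRNPMP2, -0.57 to 0.55 for HNRNPR, -0.55 to 0.10 for HNRNPRP1, -0.22 to 0.049 for HNRNPU, -0.32 to 0.43 for HNRNPUL1, -0.21 to 0.11 for HNRNPUL2, -0.26 to 0.25 for HNRNPUP1, -0.66 to 0.63 for SRSF1, -0.64 to 1.11 for SRSF11, -1.19 to 6.06 for SRSF12, -0.031 to 0.22 for SRSF2, -0.47 to 1.01 for SRSF3, -0.023 to 0.30 for SRSF4, -0.43 to 0.32 for SRSF5, -0.45 to 0.36 for SRSF6, -0.66 to 0.62 for SRSF7, -0.0094 to 0.055 for SRSF9, -0.58 to 0.77 for TRA2A and -0.62 to 0.67 for TRA2B; the value of 6.06 for SRSF12 was fitted against a control at 0 counts. Precision is limited by 2 libraries a group, and at low counts by the 4 counts that a read pair is worth.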

Other observations

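Of the named copies of the members, 33 lay outside the symbol rule, and 11 of them had a mean normalized read count of 50 or more. HNRNPA1P7 had 5313 and 9189 counts in controls 1 and 2, and 5831 and 6660 in AP1AR-DT_OE 1 and 2, a mean normalized read count 2.62 times that of HNRNPA1. HNRNPA1P48 had 3941, 7226, 4011 and 4870 counts in the same order, 1.94 times HNRNPA1. HNRNPA3P6 had 1173, 2607, 1231 and 1730 counts, 1.24 times HNRNPA3. The retrocopy HNRNPA1L2, which can encode a protein, had 657, 1142, 719 and 1076 counts. Copies of SR genes were fewer. SRSF6P2 had 1520, 2291, 1577 and 1678 counts, and SRSF3P1 had 309, 1145, 397 and 942.

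In a gene and its copy the ratio of library 2 to library 1 did not always move together. SRSF6 had a log2 ratio of control 2 to control 1 of 0.79 at a GC content of 39.8%, and SRSF6P2 had 0.03 at 51.5%. SRSF3 had 1.47 at 39.4%, and SRSF3P1 had 1.33 at 49.5%. Of the 12 pseudogenes among the members at this level, 6 had a lower ratio than their gene in control and 9 in AP1AR-DT_OE.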
